A study of Mus musculus with 2 samples.

Results

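Fibroblasts of colitis-associated colon cancers (CACs) were 117 of the 38883 cells in the deposited annotation of the series, which assigns every cell to 1 of 11 cell types. They were chosen by that annotation alone, and all of them were used. The library labelled Mir34a F/F held 57 fibroblasts among 20312 cells, and the library labelled Mir34a ΔMye held 60 among 18571 cells. All CACs had been induced in mice with azoxymethane (AOM, 10 mg/kg), a carcinogen, and 3 cycles of dextran sodium sulfate (DSS, 2.5% in the first cycles and 2% in cycle 3, for 5 days each), which causes colitis. AOM was injected 5 days before each of the first DSS periods, and 16 days of plain water followed these periods. The tumors were from female mice on a C57Bl/6 background, which were 6 to 10 weeks old at the start and were sacrificed on day 110. In Mir34a F/F mice the gene of the microRNA miR-34a is flanked by loxP sites and intact. Mir34a ΔMye mice carry the same alleles and LysM-Cre, a Cre recombinase driven by the Lyz2 promoter, which is active in myeloid cells and is no driver for fibroblasts. The littermate controls without Cre carry the floxed alleles as well. Each genotype is represented by 1 library on the 10x system, made by pooling 6 to 8 tumors of 3 mice and loading 30000 cells. Cells were not assigned to mice here, so the libraries were compared without a test. All intervals are at 95% and reflect counting error, while differences between mice are outside them. Intervals of UMI sums and ratios also leave out differences between cells, so they are too narrow where few cells hold most UMIs.

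Fibroblasts are the mesenchymal cells that secrete and crosslink the collagens, proteoglycans and glycoproteins of the stroma. In the colon, distinct fibroblasts below the epithelium and around the crypt base supply BMP ligands, BMP antagonists and Wnt modulators that position stem cells and differentiated cells. In inflamed tissue and in tumors, fibroblasts also produce proteases, chemokines and cytokines, and pericytes, which wrap small vessels, share part of their genes.

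UMIs (unique molecular identifiers) count captured mRNA molecules. The 57 fibroblasts of the library labelled Mir34a F/F together had 306299 UMIs, and the median cell had 3902 (lowest 790, highest 21890). The 60 of the library labelled Mir34a ΔMye together had 679725 UMIs, and the median cell had 9214.5 (lowest 1289, highest 28697), which is 2.36 times the other median. The median mitochondrial content was 3.55% and 5.23%, and 3 and 8 fibroblasts of the libraries had 25% or more. None of the 96 barcodes that the libraries share was a fibroblast. Fibroblasts made up 0.281% of the cells of the library labelled Mir34a F/F (exact binomial interval 0.213 to 0.363) and 0.323% of the cells of the library labelled Mir34a ΔMye (0.247 to 0.416), so the intervals overlapped. The features of the engineered loci went both with and against the labels. In macrophages, where LysM-Cre acts, the primary transcript of Mir34a had 133 UMIs under the label Mir34a F/F (0.0683 per 10000) and 462 under the label Mir34a ΔMye (0.139 per 10000), and a feature joining Cre and Lyz2 had 451 and 172 (0.232 and 0.0518). The primary transcript goes against the labels in direction, and whether it lies within the deleted part is not given in the sources used here. The separate feature for Cre alone stood at 0 macrophage UMIs under each label. The joined feature is therefore no evidence of Cre mRNA under either label, and its direction is not read for or against them. What its UMIs count was not tested. Lyz2, into which the Cre of LysM-Cre is inserted, had 3892 and 1379 UMIs in macrophages (2.00 and 0.415 per 10000), which goes with the labels, and the joined feature was lower alongside it. The libraries are therefore named as labelled, and every direction between them rests on those labels.

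In the following, the level of an mRNA is the number of its UMIs per 10000 UMIs, summed over the cells of a type in a library, with the library labelled Mir34a F/F given first and the library labelled Mir34a ΔMye second. The chemistry counts the 3′ ends of mRNAs, so levels are not divided by length, and levels of different genes are not compared. The label was checked on 4 genes that mark fibroblasts. Col1a1, which encodes a chain of type I collagen, had a level of 12.1 and 19.7 (370 and 1340 UMIs). Col3a1, which encodes type III collagen, had a level of 27.1 and 57.5 (829 and 3907 UMIs). Dcn, which encodes the collagen-binding proteoglycan decorin, had a level of 27.3 and 58.5 (836 and 3976 UMIs). Pdgfra, a receptor for platelet-derived growth factor, had a level of 3.10 and 2.59 (95 and 176 UMIs). Each of the 4 was above its level in every other cell type. For Col3a1 the highest other level was 0.0404 in erythroid cells and 0.104 in endothelial cells, a ratio of 670 (120 to 26506, with 1 UMI in the erythroid cells) and 554 (281 to 1285). Dcn was the exception in degree, with 1.02 and 1.19 in endothelial cells, 26.8 and 49.05 times below the fibroblasts. These endothelial UMIs came from 5 of 116 and 8 of 107 cells. Single fibroblasts ranged from 0 to 124 UMIs of Col3a1 per 10000 with a median of 14.1, and from 0 to 199 with a median of 22.1. For Dcn the median was 12.2 and 20.9, and the highest cell had 144 and 212, so the cells of the libraries overlapped widely.

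Marker genes were found in most but not all of the annotated fibroblasts. Col1a1 had a UMI in 84.2% (72.1 to 92.5) and 83.3% (71.5 to 91.7) of the cells and Pdgfra in 57.9% (44.1 to 70.9) and 58.3% (44.9 to 70.9). In T cells, which do not make them, the shares were 0.777% and 1.28% for Col1a1 and 0.130% and 0.0378% for Pdgfra, at a median depth of 3548 and 8043 UMIs. After each fibroblast was thinned to 1000 UMIs, which left out 3 cells of the library labelled Mir34a F/F, Col1a1 was found in 66.7% and 53.3% and Pdgfra in 16.7% and 18.3%. At least 2 of the 4 markers were found in 49 and 52 fibroblasts, and 16 fibroblasts had at most 1. The median depth was 2228.5 UMIs in the 4 cells with no marker, 1419.5 in the 12 with 1, 2443.5 in the 16 with 2, 4184.5 in the 28 with 3 and 9884 in the 57 with all 4. Since the annotation was made from the expression of these cells, the marker levels describe the group and are no test of the label, and for these 16 cells the markers do not settle it.

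**Figure D1:**
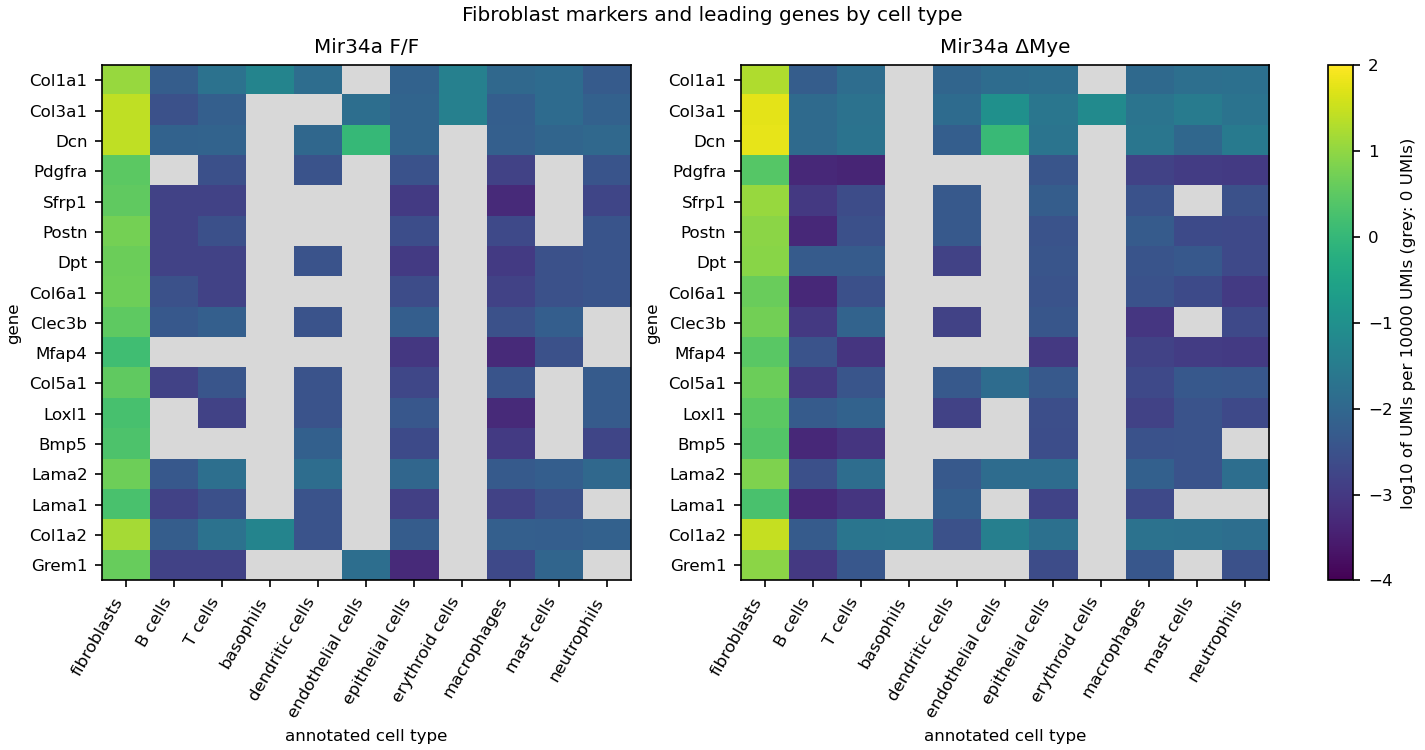
Levels of the 4 markers and the leading fibroblast genes (rows) in the 11 annotated cell types (columns) of each library, coloured by the log10 of UMIs per 10000, with grey for 0 UMIs. In both libraries the fibroblast column stands above all others, and Dcn in endothelial cells (1.02 and 1.19) is the highest level outside it.

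To find what sets the fibroblasts apart, each gene was compared with its highest level among the other 10 cell types of the same library. Of 3100 genes with at least 20 fibroblast UMIs in each library, 276 were at least 2-fold above every other cell type in both libraries, or 8.90%. Of these, 127 were at least 10-fold and 34 at least 100-fold above. Since the annotation was made from the expression of these cells, these numbers describe the group and are not a test. Endothelial cells were the next highest type for 107 and 114 of the 276 genes, ahead of epithelial cells with 43 and 45 and macrophages with 33 and 32. The levels of the 3100 genes correlated between the fibroblasts of the libraries with a Pearson r of 0.893 on the log2 scale, and this is a description across genes, which share cells and depth.

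The 15 genes with the largest ratio over the highest other type, of those detected in 25% or more of the fibroblasts in each of the libraries, were Sfrp1, Postn, Dpt, Col6a1, Pdgfra, Col3a1, Clec3b, Mfap4, Col5a1, Loxl1, Bmp5, Lama2, Lama1, Col1a2 and Grem1. Most of them encode secreted proteins. Sfrp1, a secreted inhibitor of Wnt signaling, led with 3.40 and 11.9, and its highest other level was 0.00179 in neutrophils (1 UMI) and 0.00598 in epithelial cells. Postn, which encodes the matricellular protein periostin, had 5.58 and 8.96. Dpt, which encodes dermatopontin, a protein that binds decorin and collagen fibrils, had 4.603 and 8.53. Col6a1, a chain of the microfibrillar type VI collagen, had 4.77 and 4.19. Lama1 and Lama2, the laminin chains of basement membranes, had 1.93 and 1.90, and 4.80 and 6.94. Bmp5, a ligand of the BMP family, had 2.15 and 2.43, and Grem1, an antagonist of BMP ligands, had 4.05 and 8.86. Transcripts for a BMP ligand and for a BMP antagonist were therefore both among those with the largest ratios.

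**Figure D2:**
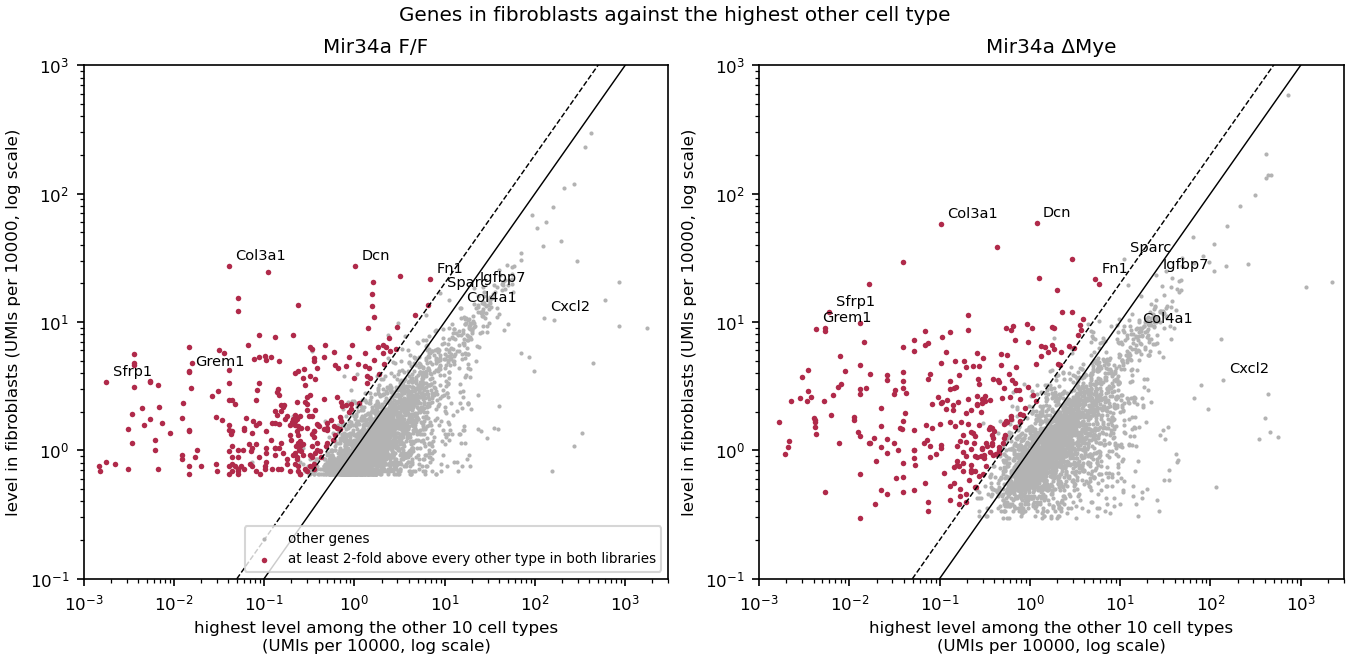
Level of 3100 genes in fibroblasts (y axis) against the highest level among the other 10 cell types (x axis), both in UMIs per 10000 on log scales, in each library. Red points are the 276 genes at least 2-fold above every other type in both libraries, the solid line marks equal levels and the dashed line a 2-fold difference. Col4a1 and Igfbp7 lie below the line of equal levels and Dcn and Col3a1 far above it.

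Membership in the 276 genes was open only to genes with 20 fibroblast UMIs in each library, so the members of each list that had them are given beside its count, which stands against 8.90% of all 3100 genes. Of 7 fibrillar collagens, 6 had them and all 6 (Col1a1, Col1a2, Col3a1, Col5a1, Col5a2 and Col5a3) were among the 276 genes, while Col11a1 had no UMI. Col1a2 had a level of 15.3 and 29.04, and Col5a2 7.93 and 8.27. The small leucine-rich and other proteoglycans followed with 7 of the 8 that had 20 UMIs (of 11 genes), among them Bgn, which encodes biglycan (16.5 and 21.9), Lum, which encodes lumican (2.64 and 5.90), and Vcan, which encodes the large proteoglycan versican (4.603 and 7.24). Omd had no UMI. Of the enzymes and chaperones that process and crosslink collagen, 9 of 14 had 20 UMIs, and 8 of these were among the 276 genes. They included the collagen chaperone Serpinh1 (3.92 and 6.15), the lysyl oxidases Loxl1 (1.76 and 3.10) and Loxl2 (3.98 and 2.63), and Adamts2, which removes the propeptide of fibrillar procollagens (2.32 and 2.68). Elastic fibre genes were found at 5.35 and 9.03 for Eln and 6.37 and 8.61 for Fbn1, with at most 0.46 and 0.62 in other types.

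Basement membrane genes went both ways between fibroblasts and endothelial cells, and no fixed list of them was used. Lamc1, a laminin chain named after its values were seen, was higher in fibroblasts, as were Lama1 and Lama2. It had 5.22 and 4.03 in fibroblasts and at most 2.38 and 2.31 in other types. Col18a1 was at least 2-fold above every other type in both libraries. Col4a1 and Col4a2, the chains of type IV collagen, had 12.9 and 8.77, and 8.78 and 5.62, against 14.8 and 14.998, and 9.59 and 9.58, in endothelial cells. Igfbp7, an insulin-like growth factor binding protein, had 18.2 and 23.2 in fibroblasts and 21.04 and 25.1 in endothelial cells. Sparc, a collagen-binding glycoprotein, was higher in fibroblasts (16.7 and 31.1) than in endothelial cells (8.97 and 11.01), though less than 2-fold in the library labelled Mir34a F/F. Fn1, which encodes fibronectin, had 21.5 and 21.6 in fibroblasts and 6.86 and 5.29 in macrophages, the next type. The endothelial markers Cdh5 (1 and 0 UMIs) and Kdr (none) were nearly absent from the fibroblasts. The 6 endothelial markers together had 15 UMIs in 11 fibroblasts and 82 UMIs in 25. Their summed level was 0.49 and 1.21, against 23.0 and 28.4 in endothelial cells. Of the 6, Pecam1 was the only 1 with at least 30 fibroblast UMIs over both libraries.

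Of 16 matrix proteases and inhibitors, 8 had 20 UMIs in each library, and 4 of these were among the 276 genes (8.90% of all genes tested). The gelatinase Mmp2 had 3.62 and 3.60, and Timp3, a matrix-bound inhibitor of metalloproteinases, had 22.6 and 12.05, with 3.18 and 2.92 in endothelial cells. Mmp14, a membrane-bound collagenase that activates Mmp2, had 6.07 and 4.74 in fibroblasts and 3.89 and 3.83 in macrophages. Mmp10, a stromelysin, had 6.01 and 0.471, and is described further with the libraries.

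Among signals to the epithelium, Wnt ligands, Wnt inhibitors and BMP ligands each had a higher summed level in fibroblasts than in any other type. It was 3.36 and 3.13 for Wnt ligands and R-spondins, with 0.251 and 0.207 in endothelial cells as the next type. For Wnt inhibitors it was 6.66 and 16.3, with 3.77 and 2.51 in epithelial cells, and for BMP ligands 8.85 and 8.83, with 0.801 and 0.667 in epithelial cells. Of 10 Wnt ligands and R-spondins, 1 had 20 UMIs in each library, namely Wnt5a, a ligand of non-canonical Wnt signaling (2.12 and 1.22), and it was also among the 276 genes. Wnt4 had 16 and 31 UMIs and Wnt5b 11 and 28. Rspo3, an amplifier of Wnt signaling, had 1 and 28 UMIs and Rspo2 had none. Of 9 Wnt inhibitors, 3 passed the minimum and all 3 were among the 276 genes (8.90% of all genes tested), Sfrp1, Sfrp2 (1.01 and 1.52) and Dkk3 (1.34 and 1.03). Frzb, a further secreted Wnt inhibitor, had 0.294 and 0.839, and Dkk1 and Sfrp5 had no UMI.

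Of 6 BMP ligands, 4 had 20 UMIs in each library. Bmp4 (4.11 and 3.46), Bmp5 and Bmp6 (0.881 and 2.10) were among the 276 genes, while Bmp2 (1.01 and 0.412) was near its level in epithelial cells (0.563 and 0.507). Of 8 antagonists of BMPs and activins, 3 had 20 UMIs in each library and all 3 were among them, Grem1, Fstl1 (6.63 and 9.71) and Twsg1 (1.502 and 1.04), where 8.90% of all genes tested were. Grem1 and Bmp5 were found together in some cells and apart in others, and whether their overlap differs from chance was not tested. With at least 3 UMIs as the limit, 12 and 24 fibroblasts had Grem1, 6 and 19 had Bmp5, and 2 and 10 had both.

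Growth factor genes with the most fibroblast UMIs were Igf1, Nrg1, Ereg and Ccn1. Igf1, insulin-like growth factor, had 4.51 and 6.53 and stood above macrophages (1.31 and 1.32). Ereg, an EGF receptor ligand, had 5.42 and 3.60 and at most 0.102 and 0.0737 in other types. Nrg1, a ligand of ErbB receptors, had 7.84 and 2.56, above macrophages (2.33) in the first value and below them (4.84) in the second. Ccn1 had 3.07 and 4.13. Of 25 growth factors, 16 had 20 UMIs in each library, and 7 of these were among the 276 genes (8.90% of all genes tested).

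Of 16 chemokines, 9 had 20 UMIs in each library and 2 of these were among the 276 genes, and of 10 cytokines 5 had them and 2 of these were (8.90% of all genes tested). Cxcl1, which attracts neutrophils, had 7.25 and 6.90 in fibroblasts and 6.16 and 5.91 in macrophages. Cxcl2 had 10.8 and 3.55 in fibroblasts and 126 and 138 in neutrophils. Ccl11, which attracts eosinophils, had 0.686 and 2.43 in fibroblasts and under 0.01 in every other type. Il11, a cytokine of the IL-6 family, had 1.34 and 0.294 and at most 0.0430 and 0.0130 elsewhere. Csf1, the ligand of a macrophage growth factor receptor, was included because the study names it for fibroblasts. It had 28 and 60 UMIs in 12 and 31 fibroblasts. Its level of 0.914 and 0.883 was below that of basophils (6.25 and 7.56).

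Of 11 complement genes, 9 had 20 UMIs in each library, and 6 of these were among the 276 genes (8.90% of all genes tested). Serping1, the C1 inhibitor, had 6.66 and 8.64, C3 had 5.71 and 8.92, C4b had 5.71 and 8.56, and C1s1, a protease of the first complement component, had 5.19 and 5.71. C4b was at most 0.0360 and 0.0686 in other types. Of the prostaglandin enzymes, the prostaglandin E synthase Ptges (1.53 and 0.691) was the only 1 of the 3 with 20 UMIs (of 5) among them, and Ptgs2, the inducible cyclooxygenase, had 4.24 and 1.28 against 7.99 in macrophages and 14.1 in basophils.

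Of 21 growth factor and cytokine receptors, 16 had 20 UMIs in each library, and 5 of these were among the 276 genes (8.90% of all genes tested), including Pdgfra, Pdgfrb (1.57 and 1.25) and the collagen receptor Ddr2 (1.83 and 2.52). Of 22 mesenchymal transcription factors, 9 had 20 UMIs and 4 of these were, among them Tcf21 (0.816 and 1.29), Gli2 (0.784 and 1.06) and Foxf1 (1.60 and 0.794), which act in gut mesenchyme. Zeb2 and Tcf4, by contrast, were higher in macrophages and in endothelial cells. Cell cycle genes were low, with 16 and 5 UMIs of Mki67 and 18 and 12 of Top2a. Immediate early and stress genes, which also respond to tissue dissociation, had a summed level of 92.0 and 113, with Fos at 14.9 and 19.4 and Egr1 at 13.6 and 19.8. The highest summed level in another type was 71.4 in epithelial cells and 70.5 in mast cells. Over single fibroblasts the median of these genes was lower than their summed level, at 70.4 and 63.8. Of these 12 genes, all with 20 UMIs in each library, 1 was among the 276, a share near the 8.90% of all genes.

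The libraries were then compared within the fibroblasts as the log2 ratio of the level in the library labelled Mir34a ΔMye over that in the library labelled Mir34a F/F. Of 5646 genes with at least 30 fibroblast UMIs over both libraries, 295 (5.22%) were at least 2-fold higher and 325 (5.76%) at least 2-fold lower in the library labelled Mir34a ΔMye. Over all of them the median log2 ratio was -0.09. Fibroblast-high genes, here those at least 2-fold above every other type over both libraries together, numbered 528. Of these, 101 (19.1%) were at least 2-fold higher and 24 (4.55%) at least 2-fold lower in the library labelled Mir34a ΔMye, and their median was 0.34. The library labelled Mir34a ΔMye held 68.9% of the fibroblast UMIs. With the same weight for each library, 93 of 518 genes (18.0%) were higher and 26 (5.02%) lower, with a median of 0.29. Among the 276 genes that were above every other type in each library on its own, with at least 20 UMIs in each, 28 were higher (10.1%) and 12 lower (4.35%), with a median of 0.15. Both choices were added after seeing the data. After the level in epithelial cells was subtracted, 1628 genes were higher and 831 lower over all genes, and without the top cell of each gene 198 were lower. Depth and the markers of other cells also differed between the libraries, as given further on, and their part in these values was not tested.

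Matrix genes went both ways between the libraries. Col3a1 had a log2 ratio of 1.09 (0.98 to 1.20), Dcn 1.0997 (0.99 to 1.21), Lum 1.16 (0.81 to 1.52), Col1a2 0.92 (0.78 to 1.07) and Col1a1 0.71 (0.54 to 0.88). Without the cell that held the most UMIs of the gene in each library, these ratios were 1.08, 1.20, 1.44, 0.94 and 0.63. The interval of Col5a2 (0.06, -0.16 to 0.28) and of Fn1 (0.00, -0.13 to 0.14) included 0, and Col4a1 (-0.55, -0.74 to -0.37) and Timp3 (-0.91, -1.06 to -0.76) were lower. Over the lists, 1 of 6 fibrillar collagens was at least 2-fold higher (Col3a1) and 1 lower (Col5a3, -1.23), and 3 of 8 proteoglycans were higher (Dcn, Lum and Ogn) and none lower. Of 28 matrix glycoproteins, 4 were higher (Fbln1, Fbln5, Mfap5 and Sparcl1) and 2 lower (Tnc and Thbs1). Over all genes the shares were 5.22% higher and 5.76% lower. The summed level of the fibrillar collagens was 68.3 and 120, while their median over single cells was closer, at 43.4 and 53.5. For the proteoglycans the summed level was 56.9 and 102 and the median 29.6 and 53.4. The summed level of the glycoproteins was 140.4 and 168, while their median over single cells was 107 and 89.1. The other collagens, with 2 of 12 higher (Col8a1 and Col14a1) and none lower, had a summed level of 51.4 and 44.4 and a median log2 ratio of -0.15. The proteases and inhibitors, with 3 of 12 higher and 3 lower, had a summed level of 50.5 and 34.0 and a median of -0.18.

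Of 6 Wnt inhibitors with 30 UMIs, 3 were at least 2-fold higher in the library labelled Mir34a ΔMye (Sfrp1, Frzb and Dkk2) and none lower, with 5.22% and 5.76% over all genes. Dkk3 (-0.38, -0.95 to 0.21) and Sfrp2 (0.58, -0.01 to 1.21) had intervals that included 0. Sfrp1 had a log2 ratio of 1.81 (1.52 to 2.12), from 104 UMIs in 25 cells to 810 UMIs in 38 cells, and 1.85 without the top cell of each library. Frzb had 1.51 (0.49 to 2.71) and Dkk2 2.10 (0.62 to 4.05), on 4 and 38 UMIs. Grem1 had 1.13 (0.85 to 1.42) and Bmp6 1.25 (0.65 to 1.91). Bmp4 (-0.25, -0.57 to 0.07) and Bmp5 (0.17, -0.25 to 0.61) had intervals that included 0.

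Of 6 adventitial fibroblast genes with 30 UMIs, 4 were at least 2-fold higher (Pi16, Cd34, Ly6c1 and Cd55) and none lower, against 5.22% and 5.76% of all genes. The summed level of all 7 was 10.3 and 21.5, but their median over single cells was 4.02 and 4.60. The 10 genes of inflammatory fibroblasts had a summed level of 34.7 and 15.4, and 1 cell of the library labelled Mir34a F/F held 506 of its 1063 UMIs of these genes. That cell held 110 UMIs of Mmp10, and also 69 of Tnc and 36 of Inhba. Its epithelial markers were at 98.6 per 10000, against 94.9 in epithelial cells of that library. Whether this barcode holds more than 1 cell was not tested. Without the top cell of each library, an alternative added after seeing the data, the summed level of the 10 genes was 19.6 and 12.8. The median log2 ratio of the list was -0.11. Of the 9 with 30 UMIs, 4 were at least 2-fold lower (Cxcl5, Il11, Mmp10 and Il1rl1) and 1 higher (Mmp3). Cxcl5, a neutrophil chemokine, had 300 UMIs in 21 cells and 195 UMIs in 31 cells, a log2 ratio of -1.77 (-2.04 to -1.51), and 143 of the 300 UMIs were in 1 cell. Without the top cell of each library the ratio was -1.12. Il1rl1, the IL-33 receptor, had 186 and 22 UMIs, of which 140 were in 1 cell of the library labelled Mir34a F/F. Inhba, a subunit of activin A, had 94 UMIs in 18 cells and 24 in 17, a log2 ratio of -3.12 (-3.83 to -2.46), or -2.67 without the top cells. Nrg1 had -1.61 (-1.90 to -1.33), Ptgs2 -1.73 (-2.14 to -1.33) and Cxcl2 -1.61 (-1.85 to -1.36).

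**Figure D3:**
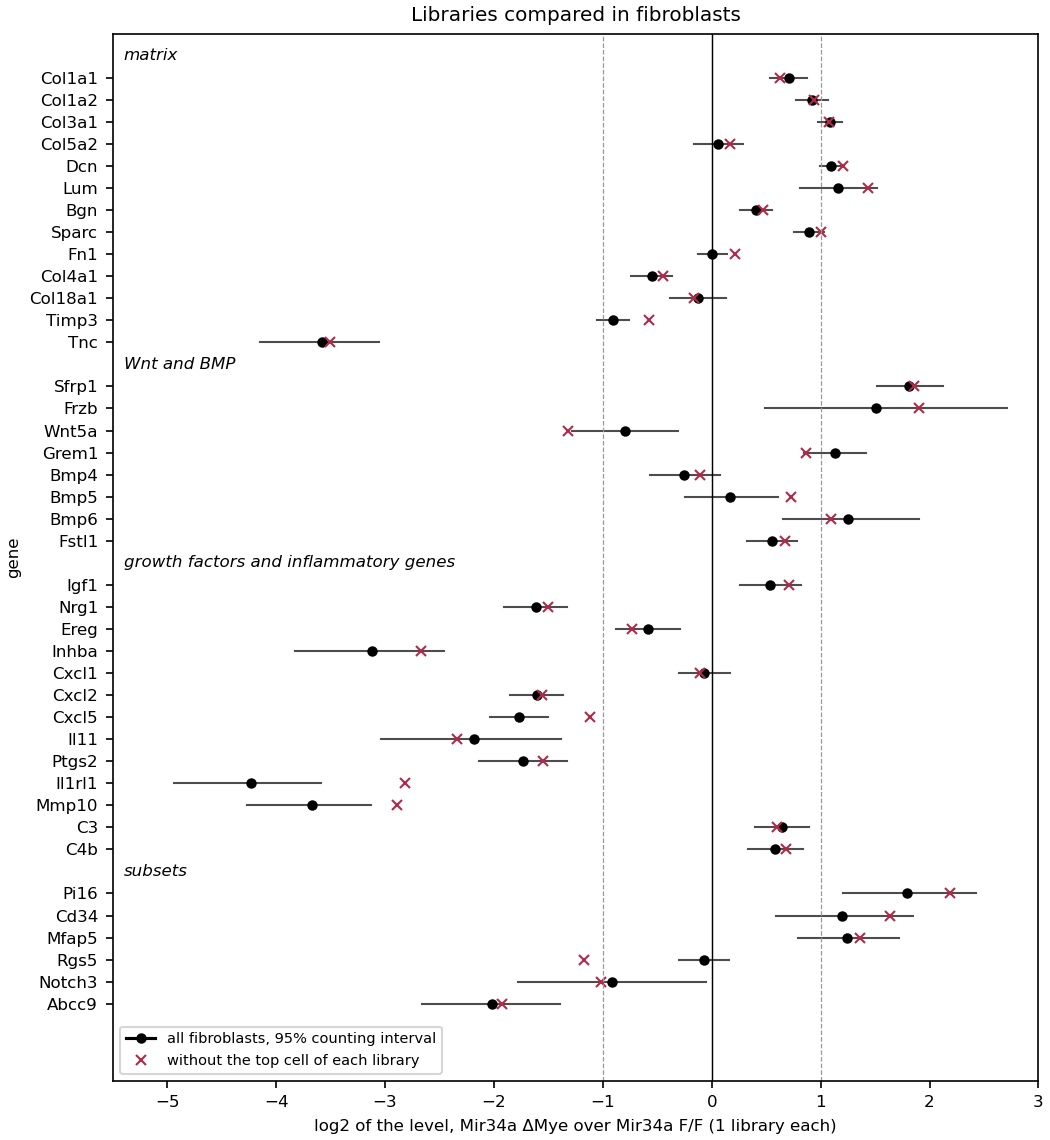
Log2 ratio of the level in fibroblasts, Mir34a ΔMye over Mir34a F/F (x axis), for 40 genes grouped by role. Black points with lines give the ratio and its 95% counting interval, red crosses the ratio without the cell that holds the most UMIs in each library, and dashed lines mark 2-fold. Col3a1, Dcn and Sfrp1 lie to the right and Tnc, Inhba and Mmp10 to the left, and Rgs5 moves from -0.08 to -1.17 without its top cells.

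The 6 fibroblast-high genes with the largest ratio in each direction were found in few cells, at most 24 in a library. They were chosen over both libraries together, so a gene could pass only through the library where it is high. They were also ranked on these same values, so their ratios only describe them. Cxcl13, a chemokine for B cells, had 198 UMIs in 7 of 57 fibroblasts of the library labelled Mir34a F/F, against 1 UMI in 1 of 60 of the other, a log2 ratio of -8.78 (-14.09 to -6.28). In the library labelled Mir34a ΔMye its fibroblast level of 0.0147 was below macrophages (0.0542) and epithelial cells (0.0370). Cemip, a hyaluronidase, had 63 UMIs in 8 cells and 4 in 4 cells, with 47 of the 63 in 1 cell. Mmp10 had 184 UMIs in 14 cells, of which 110 were in 1 cell, and 32 UMIs in 8 cells (-3.67, -4.26 to -3.13, or -2.89 without the top cells). Tnc, the matrix glycoprotein tenascin C of wounds and tumor stroma, had 189 UMIs in 14 cells and 35 in 14 cells (-3.58, -4.15 to -3.06). Its ratio was -3.51 without the top cell of each library. In the library labelled Mir34a F/F, single cells held 69, 42 and 29 of the 189 UMIs. The cell with 69 was also the cell with 110 UMIs of Mmp10. The ratio of Tnc without all of these cells was not computed. Gm16685 had 183 and 34 UMIs, 143 of them in 1 cell, and Il11 had 41 UMIs in 11 cells and 20 in 8 (-2.19, -3.03 to -1.38).

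In the other direction, Efna5, which encodes a membrane-bound ephrin, had 5 UMIs in 4 cells and 100 UMIs in 24 cells (3.17, 1.90 to 4.83). Flnc, an actin-binding filamin, had 2 UMIs in 2 cells and 32 in 12 (2.85, 0.88 to 5.96). Trim69 had 1 and 36 UMIs (4.02, 1.45 to 9.36) and Chrdl2, a BMP antagonist, 1 and 34 (3.94, 1.36 to 9.28). Pde4c had no UMI in the library labelled Mir34a F/F, where 3 UMIs are the limit that a count of 0 allows, but 77 in the other, at least 11.6-fold higher, with 52 of the 77 in 1 cell. Ctnna3 had 4 and 67 UMIs, of which 58 were in 1 cell.

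**Figure D4:**
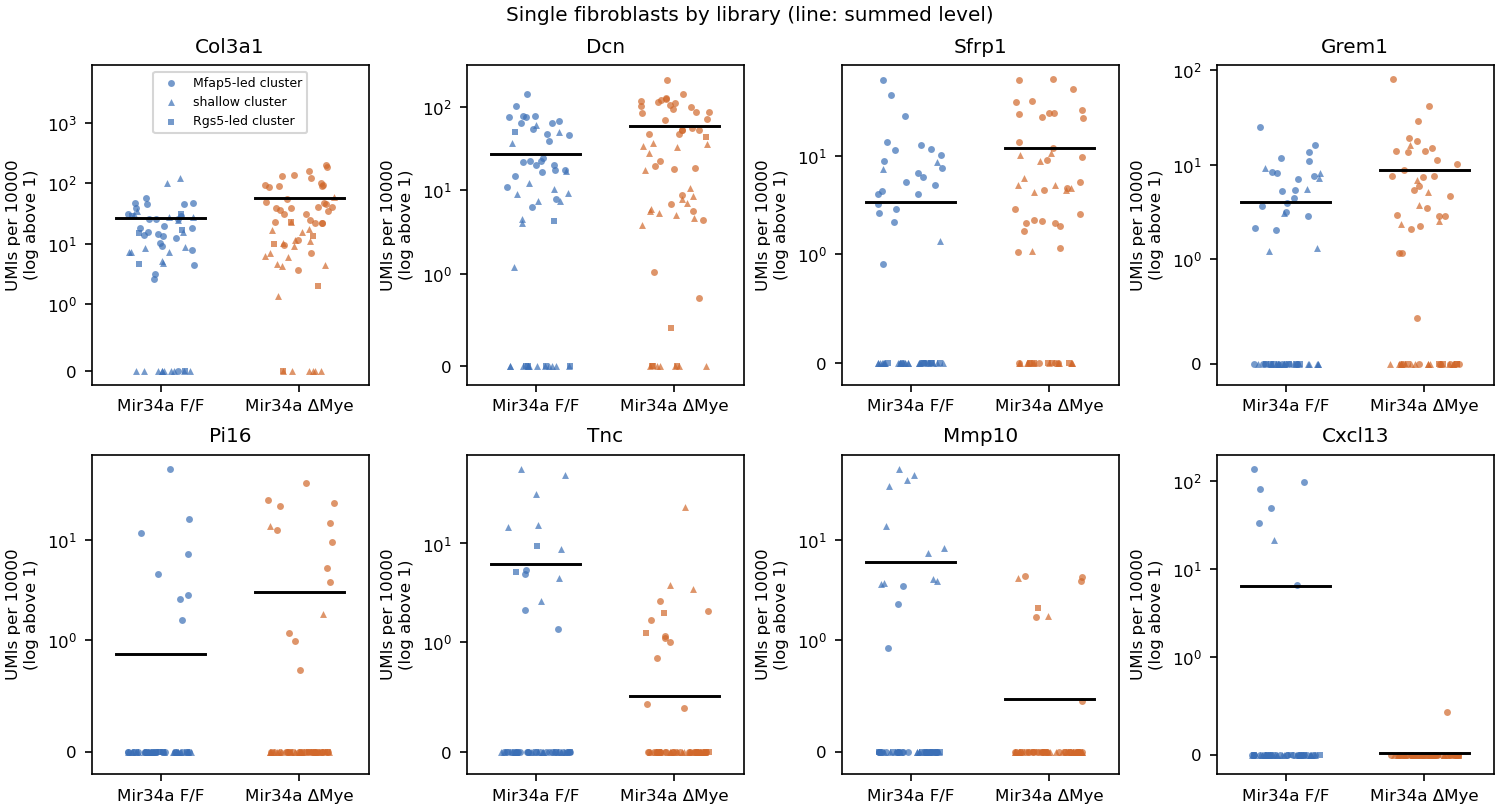
UMIs per 10000 in single fibroblasts (points, 57 and 60 cells) for 8 genes by library, on a scale that is logarithmic above 1 and linear below. Point shapes give the 3 clusters, and the black line is the summed level of the library. Col3a1 and Dcn are spread over most cells of both libraries, whereas Cxcl13 is in 7 cells on the Mir34a F/F side and in 1 on the other.

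The ratios were also computed within the largest cluster of fibroblasts, described further on, as an alternative added after seeing the data. Its 26 and 33 cells had a median of 5000.5 and 17225 UMIs, so depth differed between the libraries there as well. Within these cells Col3a1 had a log2 ratio of 1.31 (1.17 to 1.45), Dcn 0.74 (0.62 to 0.85), Sfrp1 1.31 (1.01 to 1.62) and Grem1 0.96 (0.64 to 1.28). Cxcl13 had 196 and 1 UMIs there. Tnc had -1.57 (-2.61 to -0.53) on 17 and 18 UMIs, whereas Mmp10 had -0.59 (-1.68 to 0.59) and Il11 -0.65 (-1.82 to 0.60), whose intervals included 0. Nrg1 (0.36, -0.15 to 0.91), Ptgs2 (0.59, -0.20 to 1.47) and Il1rl1 (0.67, -1.15 to 3.10) had ratios on the other side of 0 there.

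Promoters are shown for Mmp10 and Il11, whose ratio was below 0, and for Mmp13 and Mmp3, neighbours of Mmp10 on chromosome 9, to set similar sequences beside unlike values. In the fibroblasts Mmp13, a collagenase, had 60 and 3 UMIs, 48 of the 60 in 1 cell, and Mmp3, a stromelysin, had 5 UMIs in 1 cell and 40 UMIs in 5 cells, 33 of them in 1 cell. The sequences, from RefSeq on GRCm38.p6, run 5′ to 3′ on the strand of the gene from 110 bases before to 20 bases from the annotated start, with matches to TGANTCA, the letters bound by AP-1 factors such as Fos and Jun, in capitals.
Mmp10, chr9:7502232-7502361, plus strand: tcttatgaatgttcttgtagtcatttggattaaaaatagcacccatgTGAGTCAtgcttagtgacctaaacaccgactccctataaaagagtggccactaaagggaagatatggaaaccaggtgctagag
Mmp13, chr9:7272404-7272533, plus strand: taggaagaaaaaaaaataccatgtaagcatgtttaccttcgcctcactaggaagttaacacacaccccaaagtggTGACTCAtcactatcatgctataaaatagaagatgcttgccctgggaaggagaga
Mmp3, chr9:7445712-7445841, plus strand: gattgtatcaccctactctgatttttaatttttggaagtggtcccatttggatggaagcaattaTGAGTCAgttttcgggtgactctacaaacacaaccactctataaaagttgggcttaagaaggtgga
Il11, chr7:4778122-4778251, minus strand: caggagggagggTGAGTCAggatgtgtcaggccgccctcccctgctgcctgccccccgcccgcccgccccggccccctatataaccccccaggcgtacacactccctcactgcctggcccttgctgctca
The match began 63, 35, 46 and 98 bases before the start. Searched on both strands of the 300 bases around each start, TGANTCA was in promoters of 2425 of 27025 genes (8.97%). It was in 2 of the 5 genes with an entry among the 6 named as lowest in the library labelled Mir34a ΔMye (Mmp10 and Il11), in none of 5 among the 6 named as highest and in 1 of 10 among the 15 leading genes (Col6a1). All 3 Mmp promoters also hold TATAAA, which was in 15.7% of genes. Of 7 matrix metalloproteinases with an entry, 4 held TGANTCA (Mmp3, Mmp10, Mmp12 and Mmp13) and 5 held TATAAA (these 4 and Mmp8). The 3 Mmp genes shown are among these 4. Their UMI counts differed in direction between the libraries and each rested mainly on 1 cell. A match is a description of the sequence and not a bound site.

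The fibroblasts were also clustered on their own, with 3 clusters by Ward's method, to describe how they vary among themselves. Leading genes define the clusters and are not tested. The largest cluster held 59 cells (26 and 33), had a median of 10054 UMIs and was led by Mfap5, Col14a1, Fbln1, Cd34, Abi3bp and Clec3b. Mfap5, a microfibril protein, had a level of 4.27 in it and 0.0696 in the other fibroblasts, and Cd34, a sialomucin of adventitial fibroblasts and endothelium, 2.32 and 0.0696. Of the 7 markers of adventitial fibroblasts, 6 were found in at least 10% of its cells, with a summed level of 24.2 against 3.46 and 1.86 in the other clusters. The markers of trophocytes, the Grem1-positive fibroblasts below the crypts, were also highest there, at 22.2. Dcn had a level of 64.4 in this cluster, and Sfrp1 12.7.

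A cluster of 11 cells (6 and 5) was led by Rgs5, Kcnq5, Ctnna3, Cspg4, Dgkb and Notch3 and is here called pericyte-like. All 7 pericyte markers were found in at least 10% of its cells, with a summed level of 94.5 against 0.973 and 0.682 in the other clusters. Rgs5, a regulator of G protein signaling in pericytes, had 709 of its UMIs there and 20 and 1 in the others, and Notch3 had 46 against 4 and 0. Pdgfra and Grem1 had no UMI in these cells, and Dcn and Col3a1 had levels of 13.9 and 15.1. Dcn was found in 4 of the 11 cells, with 103 of its 135 UMIs in 1 cell and a level of 4.39 without that cell, and Col3a1 was found in 9, with a level of 12.6 without its top cell. Of the 6 leading genes, Rgs5, Cspg4 and Notch3 are pericyte markers and the others are not in that list. The 6 smooth muscle markers were also highest in this cluster, with a summed level of 8.68 against 0.572 and 0.945 in the others and 5 of them in at least 10% of its cells. These 11 cells were the same with 4 clusters, with 6 clusters, with 500 variable genes and with immunoglobulin, mitochondrial, haemoglobin and ribosomal genes kept. Rgs5 itself had 235 UMIs in 6 cells and 495 UMIs in 12 cells of the libraries, 330 of the 495 in 1 cell.

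The remaining cluster, with 47 cells (25 and 22), was shallow, with a median of 2486 UMIs. Its median mitochondrial content was 7.83%, against 3.32% in the largest cluster and 8.34% in the pericyte-like cluster. It was led by S100a9, S100a8, Mmp10, Epb41l4b, Clca4b and Inhba. It is left unnamed. Of its 616 UMIs of S100a9, 540 were in 1 cell, without which the level was 4.17 in place of 32.3. Mmp10 had 110 of 177 in 1 cell, and a level of 3.97 in place of 9.29 without it. Inhba had 36 of 77 in 1 cell, and a level of 2.43 in place of 4.04 without it. S100a8 and S100a9 are neutrophil genes and Clca4b is an epithelial gene, while Mmp10 and Inhba are made by activated fibroblasts. Its summed level of 6 epithelial markers was 42.1, against 11.1 in the largest cluster and 28.2 in the pericyte-like cluster. Tnc had a level of 9.03 in it, 0.501 in the largest cluster and 1.76 in the pericyte-like cluster. Col3a1 (18.8) and Pdgfra (3.31) were found in it as well.

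With 4 clusters, 9 cells (3 and 6) were split off from the largest cluster. They were led by Penk, Il17a, Tnfsf8, Gm26740, Icos and Il2ra. Il17a, Icos and Il2ra are T cell genes. Il17a had 163 UMIs in 4 of these cells, 148 of them in 1 cell, and Icos had 68 UMIs in 8. Dcn and Col3a1 had UMIs in all 9 cells, at levels of 38.7 and 15.6. The Dcn level rested largely on 1 cell with 242 UMIs, while the lowest cell had 1. Whether these barcodes hold more than 1 cell was not tested. With 6 clusters, an alternative added after seeing the data, 15 cells (7 and 8) with Bmp5 at 7.81, Wnt5a at 4.46 and Grem1 at 2.42 separated from 35 cells with Bmp5 at 0.911, Wnt5a at 0.724 and Grem1 at 14.0. The markers of Pdgfra-high subepithelial fibroblasts had a summed level of 15.4 in the 15 cells and 2.22 in the 35.

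**Figure D5:**
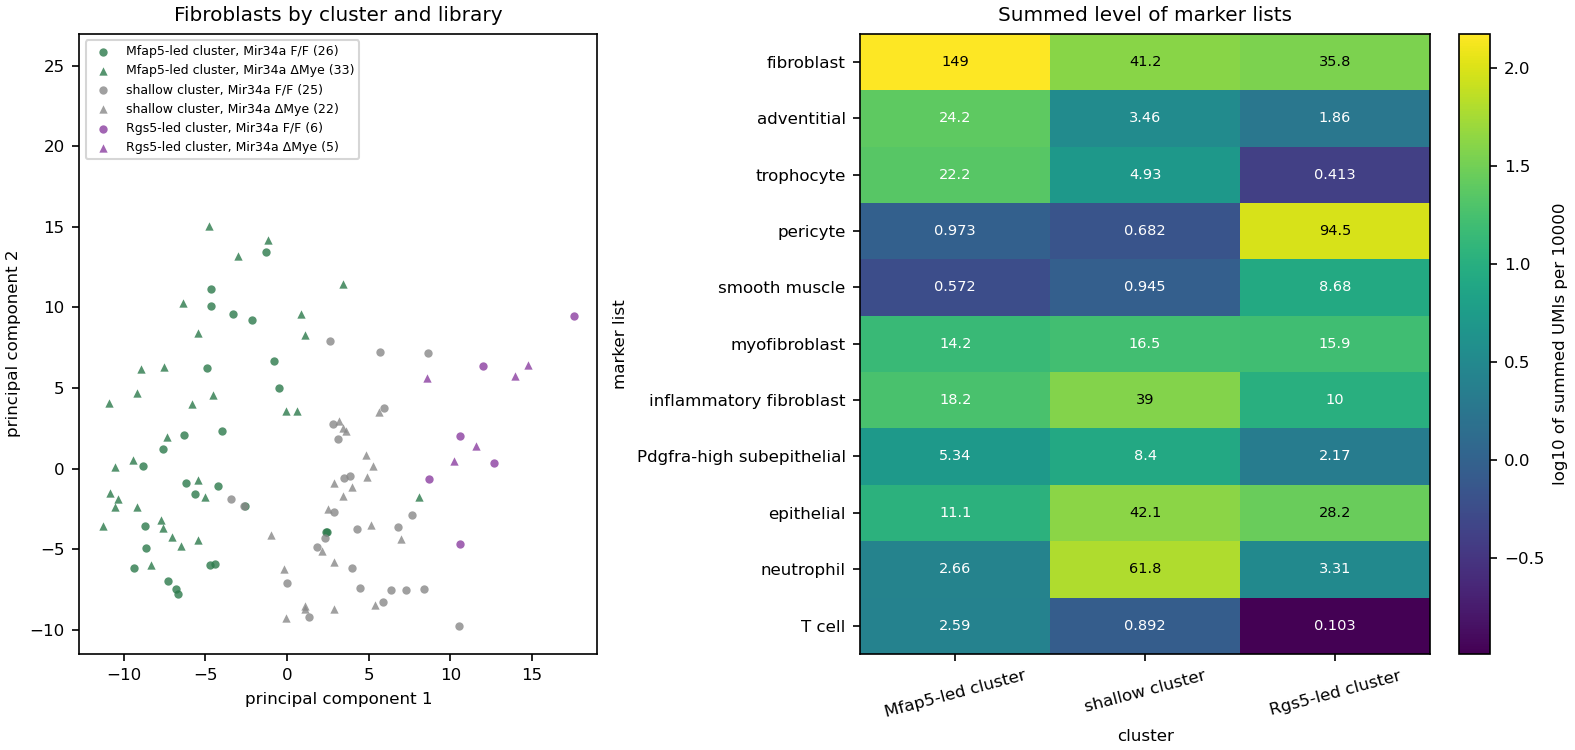
Left, the 117 fibroblasts on the first principal components, coloured by cluster with the library as shape and the number of cells in the legend. Right, the summed level of marker lists (UMIs per 10000, printed in each field) in each cluster. The pericyte markers stand at 94.5 in the Rgs5-led cluster, and the epithelial and neutrophil markers are highest in the shallow cluster.

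Markers of other cells were measured in the fibroblasts as a whole. The 6 epithelial markers had a summed level of 29.3 and 14.1, in 57 of 57 and 60 of 60 cells. This lay below epithelial cells (94.9 and 68.8) and near T cells (29.5 and 15.6), and it was lower in the library labelled Mir34a ΔMye in both types. The 5 neutrophil markers had 39.1 and 2.90, and 1039 of the 1198 UMIs of the library labelled Mir34a F/F were in 1 cell. The 5 T cell markers had 0.979 and 2.49, the 6 macrophage markers 4.77 and 1.75, and the 5 markers of B or plasma cells 10.2 and 23.5, near their level in epithelial cells (10.99 and 28.9). Markers of mesothelium were at 0 for 4 of 5 genes, and Sox10 of enteric glia was at 0, while 1 cell of the library labelled Mir34a ΔMye held 37 of the 44 UMIs of the glial list. The part of these markers in the library ratios was not tested.

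The targeted gene was looked up in the fibroblasts as a check of the locus. Its primary transcript had 2 UMIs (exact Poisson interval 0.242 to 7.22) and 1 UMI (0.0253 to 5.57), and the features for the mature miRNA and the hairpin had none. At this depth a difference in Mir34a was not detectable in fibroblasts. The feature joining Cre and Lyz2 had no UMI in fibroblasts of either library, and Lyz2 had 3 and 0. The mature miRNA whose gene is floxed is given from RefSeq (GRCm38.p6, chr4:150068473-150068494, plus strand), with bases 2 to 8, the seed that pairs with targets, in capitals.
mmu-miR-34a-5p: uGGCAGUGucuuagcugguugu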

How the data were processed

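CACs were profiled by single-cell RNA sequencing, 1 library per genotype. As the authors describe, reads were aligned to mm10 with Cell Ranger 7.2.0, cells with over 200 expressed mRNAs and under 25% mitochondrial RNA were kept, doublets were removed with Scrublet, and values were normalized in Seurat. The authors deposited the natural log of 1 plus UMIs per 10000 of each cell, with an annotation of library and cell type, used here as given. The log was undone, which gave whole UMIs (largest deviation 1.5e-10). The mitochondrial content computed from them was 25% or more in 11 fibroblasts. Depth is stated with the first results.

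UMIs were summed over cells. Intervals at 95% were exact Poisson for sums, exact binomial (Clopper-Pearson) for shares and conditional exact binomial for ratios. A library at 0 was set to 3 UMIs. No test between libraries was made. The intervals were checked only on simulated counts without differences between cells, and for ratios only on genes with many UMIs. This check therefore cannot tell how they hold for UMIs that gather in few cells. Clusters used 1000 variable genes, 10 principal components and Ward linkage. Python 3.11.15, numpy 2.4.6, scipy 1.17.1, pandas 2.3.3, scikit-learn 1.9.0 and matplotlib 3.10.9 were used.

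The cells, the 40 gene lists and the rules were chosen with earlier results of these data known. Named genes are the 4 markers, the 15 leading genes, in each list the 4 with the most fibroblast UMIs and those at 0, the 6 fibroblast-high genes with the largest library ratio in each direction, 6 leading genes per cluster and Csf1. Further list members were named after their values were seen, among them Mmp13, Mmp3, Ccl11, Eln, Fbn1, Pdgfrb, Dkk2, Tcf21, Gli2, Foxf1 and the genes given as at least 2-fold apart in a list.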

Additional observations from a re-analysis of the deposited data

Results flagged for a closer look

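Among fibroblast-high genes with at least 30 UMIs in endothelial cells, Gjc1, which encodes the gap junction protein connexin 45, was at least 2-fold apart between the libraries in opposite directions in fibroblasts and endothelial cells. Its log2 ratio was -1.40 (-2.31 to -0.51) in fibroblasts, on 25 and 21 UMIs, and 2.19 (0.79 to 3.93) in endothelial cells, on 5 and 26 UMIs. With 1 library per genotype this difference was not tested. Gjc1 was picked on these same values from genes whose number is not given here, so its ratios only describe it.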

How the results depend on the processing

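Genes at least 2-fold above every other type in both libraries (276) numbered 179 at 4-fold and 139 with at least 50 UMIs in each library, and stayed within 1.5 times of 276 under the other alternatives. Genes at least 2-fold higher in the library labelled Mir34a ΔMye (295) numbered 47 at 4-fold, 815 with at least 10 UMIs, 83 with at least 100 UMIs and 1628 after subtraction of the epithelial level. Genes at least 2-fold lower (325) numbered 36, 987, 60 and 831 under these, 198 without the top cell of each gene and 205 in the largest cluster only. Of fibroblast-high genes, 28 in place of 101 were higher and 12 in place of 24 lower when 2-fold above every other type and at least 20 UMIs were asked in each library on its own, so that 2 choices changed together. Without epithelial cells, fibroblasts were 0.655% and 0.689% of the cells. The Mfap5-led cluster held 35 cells when 6 clusters were made.

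Of 253 log2 ratios of the libraries, 70 lay outside their counting interval with the mean over cells and 26 without the top cells. After subtraction of the epithelial level 36 did, and 21 over cells with at least 500 expressed genes and under 10% mitochondrial content. With at least 2 of the 4 markers 0 did, and 0 with totals without immunoglobulin, mitochondrial, haemoglobin and ribosomal RNA-like genes. Log2 ratios of the libraries that changed sign are these. With the mean over cells they were Fos -0.45, Egr1 -0.14, Jun -0.14, Fosb -0.40, Hspa1a -0.77, H2-Ab1 0.23, H2-Aa 0.45, H2-Eb1 0.90, Epcam 0.27 and Clca4b 0.071. Over cells with at least 500 expressed genes and under 10% mitochondrial content they were Ctnna3 -1.75, Ebf1 -1.002, Myh11 -1.34, Kcnq5 -2.24 and Mmp3 -0.75. Without the top cells they were Cd74 0.35, H2-Ab1 0.30, H2-Aa 0.40 and H2-Eb1 0.56. In the largest cluster they were Timp2 -0.022, Bmp2 1.81, Nrg1 0.36, Ereg 0.31, Saa3 3.06, Ptgs2 0.59, Il1rl1 0.67, Abcc9 0.57, Kcnq5 -2.39, Col6a3 0.039 and Tgfbr3 -0.058. Without the Rgs5-led cluster they were Ctnna3 -1.20, Abcc9 0.34, Notch3 0.39 and Kcnq5 -0.42, and without the cells led by T cell genes Trbc2 -0.42. The cause was not tested. Alternatives by cluster, and those of the choice of fibroblast-high genes, were added after seeing the data. No paired analysis was possible because each genotype had 1 library. Depth limits rare mRNAs most, since 3 UMIs in the fibroblasts of the library labelled Mir34a F/F are a level of 0.0979 and in the other library 0.0441.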
